A study of Mus musculus with 12 samples.

Results

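Astrocyte maturation was followed here through 9 genes: Gfap, Aqp4, S100b, Slc1a2, Glul, Apoe, Sparcl1, Clu and Mlc1. They were found on the arrays by the gene name of each non-control probe, with older names mapped to the current symbol, which gave 14 probes for the 9 genes, of 22318 genes or unnamed probes tested. The probe with the highest mean signal stood for each gene. All groups derived from one genotype, an Actin-eGFP line of mouse embryonic stem cells (mESC) on the C57BL/6 background. After feeder cells were taken away, embryoid bodies formed for 4 days, neural progenitors were selected for 6 days in serum-free medium with fibronectin, and the harvested precursors were plated on polyornithine and laminin. Step 5 cells were neuronal differentiation cultures kept for 7 days without bFGF, with B27 and ascorbic acid at 200 µM. Step 4 cells were precursors grown for 5 days in N2 medium that held 10 ng/ml bFGF. Enriched cells were cleared of dead cells and selected with magnetic beads for PSA-NCAM, the cell adhesion molecule NCAM that carries polysialic acid on young neural cells, and control cells were not sorted. The labels do not say whether the step 5 enriched cells were sorted before or after the 7 days. Each of the groups, step 5 enriched, step 5 control, step 4 enriched and step 4 control, had 3 biological replicates, and each of the 12 arrays set a Cy5-labelled sample against Cy3-labelled mESC RNA. A level is therefore the log2 ratio of a sample to mESC, a difference is between such log2 ratios, and the number of arrays limits the precision of both.

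Astrocytes supply neurons with nutrients, clear transmitter and potassium from synapses, line blood vessels with their endfeet and release lipoproteins and matrix proteins. They arise from radial glia late in neural development, once cytokine signalling through JAK and STAT proteins, BMP signalling and nuclear factor I proteins have opened their genes. Gfap encodes the intermediate filament of mature and reactive astrocytes, and S100b a calcium-binding protein. Aqp4 is the water channel of the endfeet, and Mlc1 a membrane protein that partners with Hepacam and is needed for volume regulation. Slc1a2 is the glutamate transporter GLT-1, and Glul the glutamine synthetase that recycles the glutamate it takes up. Apoe and Clu are carriers of brain lipoproteins, and Sparcl1, also called hevin, is a secreted matrix protein that promotes excitatory synapses. Apoe, Clu, Glul and S100b are also made by other cells, oligodendrocyte lineage cells or endoderm among them, so none of these marks an astrocyte by itself.

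Sequences are shown for the probes and promoters on which the results turn. The Apoe probe A_51_P171999 measured the member whose enrichment effect had opposite signs at the steps. It lies in coding sequence at chr7:20281732-20281791 on the minus strand of mm9. The Slc1a2 probe A_55_P1955412, in coding sequence at chr2:102617752-102617811 on the plus strand, was the bright probe of 3 that differed in size of effect. The Gfap probe A_55_P2157245, in coding sequence at chr11:102752726-102752785 on the minus strand, belongs to the transcript with another 3' end. They read 5' to 3' as follows.
Apoe A_51_P171999: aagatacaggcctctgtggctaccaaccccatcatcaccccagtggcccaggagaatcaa
Slc1a2 A_55_P1955412: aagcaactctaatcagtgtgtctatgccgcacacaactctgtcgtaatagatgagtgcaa
Gfap A_55_P2157245: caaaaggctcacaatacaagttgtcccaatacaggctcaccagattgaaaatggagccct

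Promoter windows, 250 bases before to 50 after a gene's start, came from RefSeq for GRCm38.p6, which is another build than the probe positions. They matched 6 of the 9 members, and Apoe had 3 windows among the 8. Motifs were searched on both strands, and the matches did not overlap. TTCNNNGAA, the core that STAT proteins bind, stood in 8.3% of all 32851 windows and in 1 of the 8 member windows, that of Gfap. TTGGCA, a core of the nuclear factor I site, stood in 14.1% of all windows and in 2 of the 8, those of S100b and of 1 Apoe start. Gfap and S100b are printed, 1 window for each motif. Both were higher in step 5 than in step 4 enriched cells, as was Apoe, whose matching window is not printed. The Gfap window is chr11:102897151-102897450 on the minus strand with TTCNNNGAA in capitals at bases 249 to 257, and the S100b window is chr10:76253586-76253885 on the plus strand with TTGGCA in capitals at bases 232 to 237. Such matches describe letters and no binding.
Gfap: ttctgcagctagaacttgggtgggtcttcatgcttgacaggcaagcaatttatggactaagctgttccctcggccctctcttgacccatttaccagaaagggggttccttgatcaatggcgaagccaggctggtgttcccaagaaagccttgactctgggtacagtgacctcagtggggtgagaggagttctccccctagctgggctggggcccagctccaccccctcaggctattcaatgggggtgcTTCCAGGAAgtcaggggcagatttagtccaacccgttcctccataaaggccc
S100b: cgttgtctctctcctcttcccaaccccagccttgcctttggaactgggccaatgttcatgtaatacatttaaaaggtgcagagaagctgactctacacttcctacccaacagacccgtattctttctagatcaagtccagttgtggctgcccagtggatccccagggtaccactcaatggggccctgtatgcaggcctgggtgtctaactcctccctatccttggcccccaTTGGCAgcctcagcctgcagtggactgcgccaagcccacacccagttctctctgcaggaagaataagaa

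In step 5 enriched cells each of the 9 genes had its highest group mean. All 9 passed the filter on low signal, Cy5 well above background on all 3 arrays of a group, which a gene can meet through its high group alone. Against step 5 control cells, 6 of 9 were higher and 0 lower at an adjusted p under 0.05 (limma, two-sided, Benjamini-Hochberg over all genes tested): Aqp4, S100b, Slc1a2, Glul, Apoe and Sparcl1. Over all genes 40.4% passed this test, 20.3% higher and 20.1% lower. The median log2 difference of the members was 2.66, and that of all genes was -0.01. Against step 4 enriched cells, 7 of 9 were higher and 0 lower, all but Sparcl1 and Mlc1, while 6.42% of all genes passed, 3.93% higher and 2.49% lower. With the replicate number as a block the same count of members passed, and 10.9% of all genes did. The members' median log2 difference between these enriched cells was 2.50, against -0.00 for all genes. At step 4, enrichment left 8 of 9 members short of the threshold and 1 lower, Apoe, at a background of 31.2% of all genes, 15% higher and 16.1% lower. Step 5 control against step 4 control cells gave 0 of 9 and 0% of all genes, and at an unadjusted p under 0.05 it gave 3 members, Gfap, Aqp4 and S100b, and 8.59% of all genes. These comparisons share arrays, so the calls in one are not independent of those in another. In these bulk samples fewer cells of a type and less RNA per cell cannot be told apart.

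**Figure D1:**
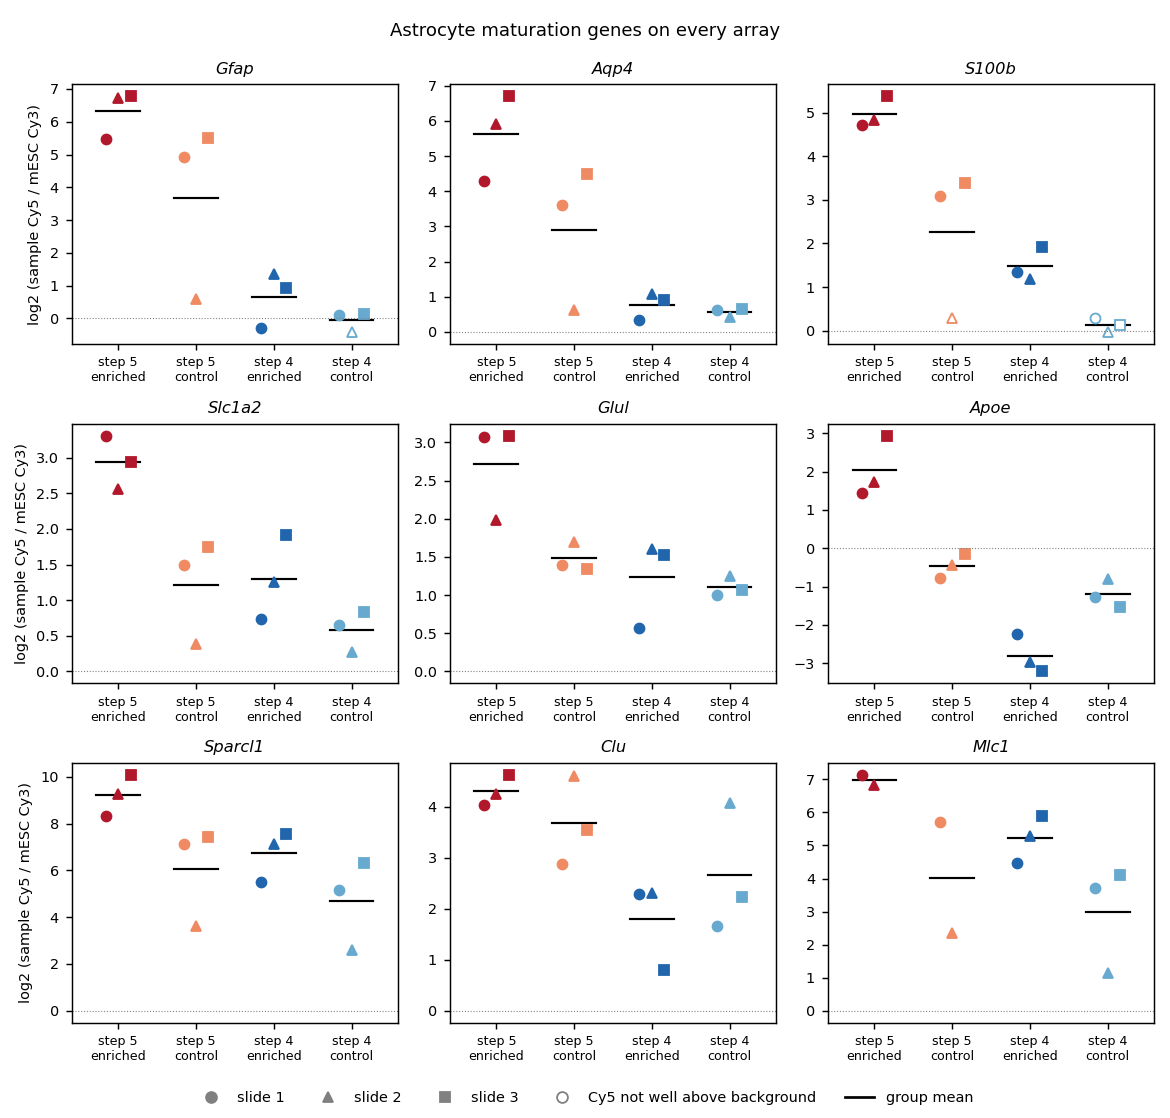
Log2 ratio of sample Cy5 to mESC Cy3 for each of the 9 genes on each array, by group, with a bar at the group mean. Symbols give the slide and open symbols a Cy5 signal not well above background. Step 5 enriched cells have the highest mean in each panel, and the slide 2 array of the step 5 control cells lies near the step 4 level for Gfap, Aqp4 and S100b.

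A replicate's number is also that of its slide, 1, 2 or 3, and each slide held 1 array of every group. Of 39429 probes, 25595 to 29072 per array were well above background in Cy5 and 23340 to 25667 in the mESC channel. The slide 2 arrays of both control groups stood apart: they correlated least with the others of their group, at 0.662 to 0.756 for step 5 control and 0.736 to 0.788 for step 4 control cells, across probes. Slide 2 was also scanned on another day and read with another version of the software. These 2 arrays were the lowest of their group for 6 of 9 members at each step, and the differences that these arrays moved most are also given without them. As a check of the labels, the sort antigen gene Ncam1 and the polysialyltransferases St8sia2 and St8sia4 were higher in enriched than in control cells at both steps, by 1.28 to 2.69 in log2 at step 5 and 1.34 to 1.86 at step 4. All 10 radial glia markers were well above background on the step 4 enriched arrays, as on the step 4 control and step 5 enriched arrays. On the step 5 control arrays 9 or 10 were, so their detection sets no group apart. All 10 pluripotency markers were still well above background on every array, with a median level of -4.50 to -2.93 in step 5 enriched cells and -0.88 to -0.77 in step 5 control cells.

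Gfap, the filament gene, was close to its mESC level in step 4 cells. Its log2 ratios to mESC were 5.47, 6.74 and 6.78 in step 5 enriched cells, 4.92, 0.59 and 5.51 in step 5 control cells, -0.29, 1.37 and 0.93 in step 4 enriched cells, and 0.11, -0.41 and 0.14 in step 4 control cells, for slides 1, 2 and 3. All step 5 enriched arrays lay above all step 4 enriched arrays, while the step 5 groups overlapped because slide 1 enriched stood below slide 3 control. Means were 6.33 ± 0.74 and 3.67 ± 2.69 in step 5 enriched and control cells, and 0.67 ± 0.86 and -0.06 ± 0.31 in step 4 enriched and control cells (SD, n = 3 each). Gfap rose by 5.66 in log2 in step 5 enriched over step 4 enriched cells (SE 1.05, 95% interval 3.33 to 7.99, adjusted p = 0.0132, 50.6-fold), with 5.76, 5.37 and 5.85 on the 3 slides. That call was lost without step 5 enriched replicate 3 (5.44, adjusted p = 0.0525) and with arrays scaled to a common spread (4.21, adjusted p = 0.163). Within step 5 its enrichment difference was 2.66 (interval 0.33 to 4.99, adjusted p = 0.067), with 0.55, 6.14 and 1.28 on the slides, so the mean rests on slide 2. Without step 5 control replicate 2 that difference was 1.12 (adjusted p = 0.121), and without step 5 control replicate 3 it was 3.57 (adjusted p = 0.0261). Averaged over the Gfap probes it was 2.47 (adjusted p = 0.0395), and in the Cy5 channel alone, an alternative chosen after seeing the data, 3.54 (adjusted p = 0.0496). The normalized mESC signal of the Gfap probe was itself 230 to 427 on the step 5 enriched arrays, 102 to 217 on the step 5 control arrays and 98.8 to 127 on the step 4 arrays, and its part in the ratios was not tested.

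In control cells Gfap was 3.73 higher in log2 at step 5 than at step 4 (adjusted p = 0.287), with 4.82, 1.01 and 5.37 on the slides. Leaving out step 5 control replicate 2 gave 5.27 (adjusted p = 0.00171), and leaving out both slide 2 control arrays gave 5.09 (adjusted p = 0.00729). At step 4 the enrichment difference of Gfap was 0.73 (adjusted p = 0.64), with 1 of 3 slides below 0. A second Gfap probe, A_52_P52303, gave 3.04 for step 5 enrichment and 5.74 for step 5 over step 4 enriched cells, close to the brightest probe, A_55_P2157250. The third, whose sequence is printed above, gave 1.70 and 2.59, although it is assigned to the same transcript as A_52_P52303. It was well above background on all 3 step 5 enriched arrays, 2 step 5 control arrays, 1 step 4 enriched array and 0 step 4 control arrays.

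S100b, the calcium-binding protein gene, was high in step 5 enriched cells on all 3 slides. Its log2 ratios were 4.73, 4.83 and 5.38 in step 5 enriched cells and 3.1, 0.29 and 3.39 in step 5 control cells, against 1.35, 1.19 and 1.91 in step 4 enriched cells and 0.28, -0.03 and 0.12 in step 4 control cells. Step 5 enriched arrays did not overlap any other group, and all 3 step 4 enriched arrays lay above all step 4 control arrays. It was higher by 2.72 in log2 in step 5 enriched than step 5 control cells (SE 0.65, interval 1.29 to 4.15, adjusted p = 0.00752, 6.60-fold), with 1.63, 4.54 and 2.00 on the slides. Without step 5 control replicate 2 the difference was 1.74 (adjusted p = 0.000979). The call was lost on the log ratio of the scanner software (1.47, adjusted p = 0.17). It was also lost with arrays scaled to a common spread (1.04, adjusted p = 0.376). Step 5 enriched over step 4 enriched cells gave 3.50 (SE 0.65, adjusted p = 0.0128, 11.3-fold), with 3.38, 3.64 and 3.47 on the slides. On the log ratio of the scanner software that difference was 0.19 (adjusted p = 0.918), and with arrays scaled to a common spread 2.48 (adjusted p = 0.186). It also lost the call without step 4 enriched replicate 2 (3.35, adjusted p = 0.0612) and without step 5 enriched replicate 3 (3.30, adjusted p = 0.0527).

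At step 4 S100b was 1.36 higher in enriched than control cells (SE 0.65, adjusted p = 0.135), with 1.07, 1.22 and 1.78 on the slides. Without step 5 control replicate 2 the same difference had an adjusted p of 0.00204. That array is in neither step 4 group, so only the spread shared over the groups changed. S100b was not well above background on any step 4 control array, so that level is a bound. Taken in the Cy5 channel, step 4 enriched cells were at least 3.17-fold and step 5 control cells at least 5.98-fold above step 4 control cells, the last from the mean of all 3 step 5 control arrays, of which 2 were well above background. Mean normalized log2 Cy5 signals were 8.04 in step 4 enriched, 8.96 in step 5 control and 6.32 in step 4 control cells. A bound sets the brighter group's mean over all its arrays against the higher, on each dim array, of the lowest signal well above background and the probe's own signal, per channel and open to dye bias. The mESC signal of this probe was not constant: normalized Cy3 was 194 to 428 on the step 5 enriched arrays and 68.8 to 128 on the other 9, although each array carried the same mESC RNA, and its part in the ratios was not tested. In the Cy5 channel alone the step 5 enrichment difference was 4.05 (adjusted p = 0.00429) and the difference between the enriched groups 4.96 (adjusted p = 0.0103). In control cells S100b stood 2.13 higher at step 5 than at step 4 (adjusted p = 0.334), and 3.12 higher without step 5 control replicate 2 (adjusted p = 0.00113).

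Aqp4, the endfoot water channel, had log2 ratios of 4.29, 5.90 and 6.70 in step 5 enriched cells, 3.61, 0.62 and 4.48 in step 5 control cells, 0.33, 1.07 and 0.92 in step 4 enriched cells, and 0.61, 0.43 and 0.66 in step 4 control cells. The step 4 groups overlapped near the mESC level, and in step 5 slide 1 enriched stood below slide 3 control. Aqp4 rose by 4.86 in log2 in step 5 enriched over step 4 enriched cells (SE 0.86, adjusted p = 0.0113, 29.0-fold), with 3.96, 4.83 and 5.78 on the slides. Within step 5 it was higher by 2.73 after enrichment (SE 0.86, interval 0.82 to 4.64, adjusted p = 0.0282), with 0.69, 5.28 and 2.22 on the slides. That call was lost without step 5 control replicate 2 (1.59, adjusted p = 0.0588), and also without step 5 enriched replicate 2 (2.60, adjusted p = 0.0741) or replicate 3 (2.20, adjusted p = 0.105). It was lost as well with the compared groups alone (2.73, adjusted p = 0.0966) and with arrays scaled to a common spread (0.77, adjusted p = 0.621). The other Aqp4 probe gave 2.48 for step 5 enrichment and 4.21 between the enriched groups. At step 4 the enrichment difference was 0.21 (adjusted p = 0.88). In control cells step 5 stood 2.33 above step 4 (adjusted p = 0.442), with 3.00, 0.19 and 3.82 on the slides, and 3.48 without step 5 control replicate 2 (adjusted p = 0.0193).

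Mlc1, the Hepacam partner, was already present at step 4. Its log2 ratios were 7.13 and 6.83 in step 5 enriched cells and 5.72 and 2.34 in step 5 control cells on slides 1 and 2, since both step 5 spots on slide 3 were marked as non-uniform and left out of the fit. They were 4.48, 5.28 and 5.90 in step 4 enriched cells and 3.70, 1.15 and 4.11 in step 4 control cells. All enriched arrays lay above all control arrays of the same step at both steps, yet neither difference passed: it was 2.95 at step 5 (SE 1.2, adjusted p = 0.0812; 1.42 and 4.49 on slides 1 and 2) and 2.23 at step 4 (SE 0.98, adjusted p = 0.117; 0.78, 4.13 and 1.79). With the left-out spots kept, the step 5 difference was 2.41 (adjusted p = 0.0883). It was 1.26 without step 5 control replicate 2 (adjusted p = 0.425), 4.64 without step 5 control replicate 1 (adjusted p = 0.0171) and 2.95 with a smaller spread without step 4 control replicate 2 (adjusted p = 0.044). Without step 4 control replicate 2 the step 4 difference was 1.31 (adjusted p = 0.338). Step 5 enriched over step 4 enriched cells gave 1.76 (adjusted p = 0.399). In step 4 control cells mESC signal was not well above background on any array, and Mlc1 was at least 7.92-fold above mESC there.

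The glutamate pair had smaller log2 differences than Gfap, Aqp4 and S100b in the comparisons that passed. Slc1a2, the transporter, had log2 ratios of 3.31, 2.56 and 2.94 in step 5 enriched cells and 1.49, 0.39 and 1.75 in step 5 control cells, and of 0.73, 1.25 and 1.92 in step 4 enriched cells and 0.65, 0.27 and 0.84 in step 4 control cells. Every step 5 enriched array was above every other array. It was higher by 1.73 in step 5 enriched than step 5 control cells (SE 0.38, interval 0.88 to 2.58, adjusted p = 0.00538, 3.31-fold), with 1.82, 2.18 and 1.18 on the slides, and by 1.64 than in step 4 enriched cells (SE 0.38, adjusted p = 0.0328). The 1.73 was not called on the log ratio of the scanner software (1.69, adjusted p = 0.157). Nor was it with arrays scaled to a common spread (0.755, adjusted p = 0.22). The 1.64 had an adjusted p of 0.0524 to 0.108 without step 4 enriched replicate 1 or 2 or any 1 of the step 5 enriched replicates. At step 4 the enrichment difference was 0.71 (adjusted p = 0.183). The other Slc1a2 probes, for a transcript with another 3' end, gave smaller step 5 enrichment differences of 0.67 and 0.61. They were well above background on 6 and 5 of 12 arrays, so their ratios are limited by low signal. Against mESC, where the probe was not well above background in Cy3, Slc1a2 was at least 2.27-fold higher in step 5 control, 2.47-fold in step 4 enriched and 1.47-fold in step 4 control cells.

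Glul, the glutamine synthetase, had log2 ratios of 3.07, 1.99 and 3.09 in step 5 enriched cells and 1.40, 1.70 and 1.34 in step 5 control cells, against 0.57, 1.61 and 1.53 in step 4 enriched cells and 1.00, 1.25 and 1.07 in step 4 control cells. The lowest step 5 enriched array, on slide 2, was still above the highest of the other 9. It was higher by 1.24 after enrichment at step 5 (SE 0.33, interval 0.51 to 1.96, adjusted p = 0.0126, 2.35-fold), with 1.67, 0.29 and 1.75 on the slides, and this had an adjusted p of 0.0521 without step 5 enriched replicate 3. With arrays scaled to a common spread the difference was 0.25 (adjusted p = 0.552). Step 5 enriched over step 4 enriched cells gave 1.48 (SE 0.33, adjusted p = 0.0258), with 2.50, 0.38 and 1.56 on the slides. That call was lost without step 4 enriched replicate 1 or 2 and without step 5 enriched replicate 1 or 3 (adjusted p 0.053 to 0.098). In contrast to the slide pattern of Gfap, Aqp4 and Sparcl1, the slide 2 difference of Glul was the smallest of the 3. Its step 4 enrichment difference was 0.13 (adjusted p = 0.797).

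**Figure D2:**
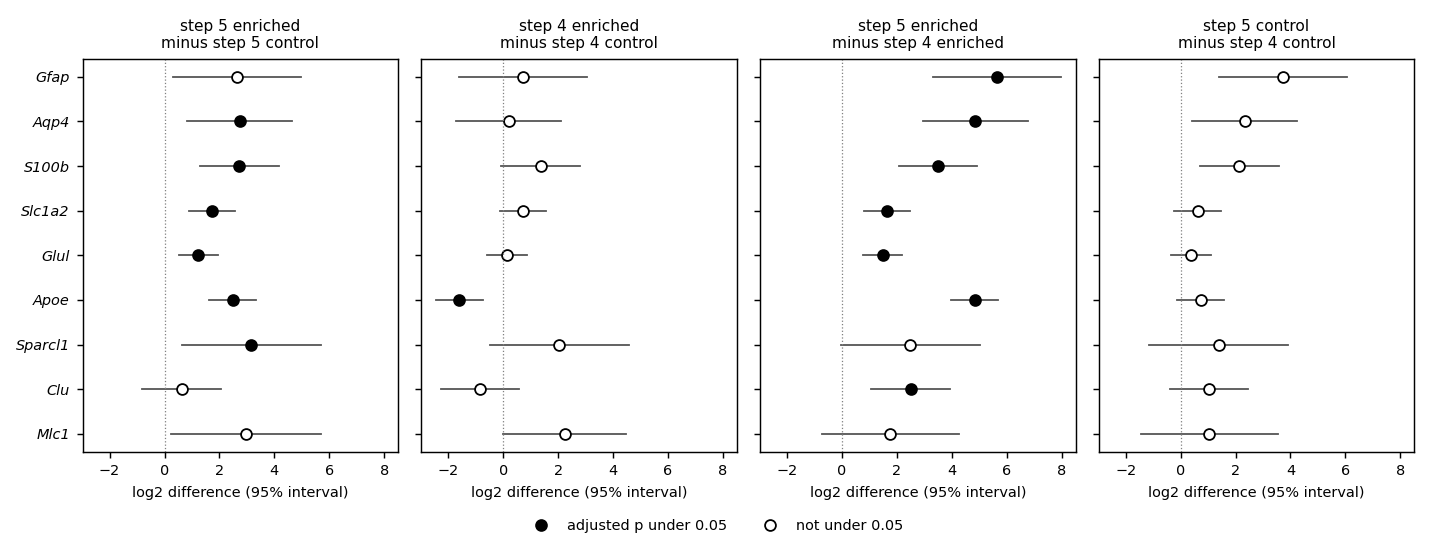
Log2 differences of the 9 genes with 95% intervals in the comparisons named above each panel, filled where the adjusted p was under 0.05. Apoe lies right of 0 at step 5 enrichment (2.49) and left of 0 at step 4 enrichment (-1.61). With arrays scaled to a common spread, Sparcl1 and Clu stand below 0 at step 5 enrichment, and Sparcl1, Aqp4 and Glul at step 4.

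Apoe, the lipid carrier, was the member with opposite calls at the steps. Its log2 ratios were 1.44, 1.72 and 2.94 in step 5 enriched cells, -0.78, -0.43 and -0.16 in step 5 control cells, -2.24, -2.97 and -3.21 in step 4 enriched cells, and -1.26, -0.81 and -1.52 in step 4 control cells, each the mean of 10 spots. The 4 groups did not overlap, with step 5 enriched highest, then step 5 control, step 4 control and step 4 enriched cells. At step 5 Apoe was higher by 2.49 after enrichment (SE 0.39, interval 1.63 to 3.34, adjusted p = 0.000857, 5.61-fold), with 2.22, 2.15 and 3.1 on the slides. At step 4 it was lower in enriched than in control cells, with a difference of -1.61 (SE 0.39, interval -2.46 to -0.75, adjusted p = 0.0113, 3.05-fold lower), with -0.98, -2.16 and -1.69 on the slides. That second call was lost without both slide 2 control arrays (-1.42, adjusted p = 0.051) and without all of slide 2 (-1.33, adjusted p = 0.159). Step 5 enriched over step 4 enriched cells gave 4.84 (SE 0.39, interval 3.98 to 5.69, adjusted p = 0.000365, 28.6-fold), with 3.67, 4.69 and 6.15 on the slides, and ranked 8 by p among 22318. In control cells the step difference was 0.74 (adjusted p = 0.687).

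The test of the difference between the enrichment effects themselves gave 4.10 in log2 for Apoe, step 5 minus step 4 (SE 0.55, interval 2.89 to 5.31), with 3.19, 4.31 and 4.79 on the 3 slides. Its adjusted p of 0.0542 did not pass. Nor did that of any of the 22318 genes (0%), of which 7.05% had an unadjusted p under 0.05. Over the alternatives the adjusted p of Apoe ran between 0.019 and 0.649, and it was 0.0753 with the replicate number as a block. The other 8 members had differences of 0.72 to 2.52 with adjusted p of 0.658 to 0.972, so a larger enrichment effect at step 5 was not shown for any member.

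Clu, the other lipoprotein gene, had the same order of group means as Apoe, but its neighbouring groups overlapped and its enrichment differences did not pass. Its log2 ratios were 4.04, 4.24 and 4.62 in step 5 enriched cells, 2.87, 4.61 and 3.55 in step 5 control cells, 2.28, 2.30 and 0.80 in step 4 enriched cells, and 1.66, 4.07 and 2.23 in step 4 control cells. On slide 2, where most members were lowest in control cells, Clu was highest in them. Enrichment differences were 0.62 at step 5 (SE 0.64, adjusted p = 0.478; 1.17, -0.37 and 1.06 on the slides) and -0.86 at step 4 (adjusted p = 0.342; 0.62, -1.77 and -1.43). Step 5 enriched over step 4 enriched cells gave 2.50 (SE 0.64, adjusted p = 0.0466, 5.66-fold), with 1.76, 1.94 and 3.81 on the slides. This call was lost without any 1 of the 6 enriched arrays, and without step 4 control replicate 3 or step 5 control replicate 3, at adjusted p of 0.0646 to 0.144.

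Sparcl1, the synapse-promoting matrix gene, was far above mESC in all groups. Its log2 ratios were 8.32, 9.25 and 10.07 in step 5 enriched cells and 7.12, 3.62 and 7.42 in step 5 control cells, against 5.48, 7.13 and 7.55 in step 4 enriched cells and 5.14, 2.58 and 6.30 in step 4 control cells. Every step 5 enriched array was above the other 9, and the remaining groups overlapped. It was higher by 3.16 after enrichment at step 5 (SE 1.14, interval 0.64 to 5.68, adjusted p = 0.0472, 8.95-fold), with 1.2, 5.62 and 2.66 on the slides. This call was near the threshold and was lost without any 1 of the step 4 or step 5 enriched replicates except step 4 enriched replicate 1, without step 4 control replicate 1, and without step 5 control replicate 2, where the difference was 1.95 (adjusted p = 0.159). With arrays scaled to a common spread it was -0.33 (adjusted p = 0.894). At step 4 the difference was 2.05 (adjusted p = 0.199), with 0.34, 4.55 and 1.25 on the slides, and 1.00 without step 4 control replicate 2 (adjusted p = 0.563). In enriched cells step 5 over step 4 gave 2.49 (adjusted p = 0.233), with 2.84, 2.12 and 2.52 on the slides.

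**Figure D3:**
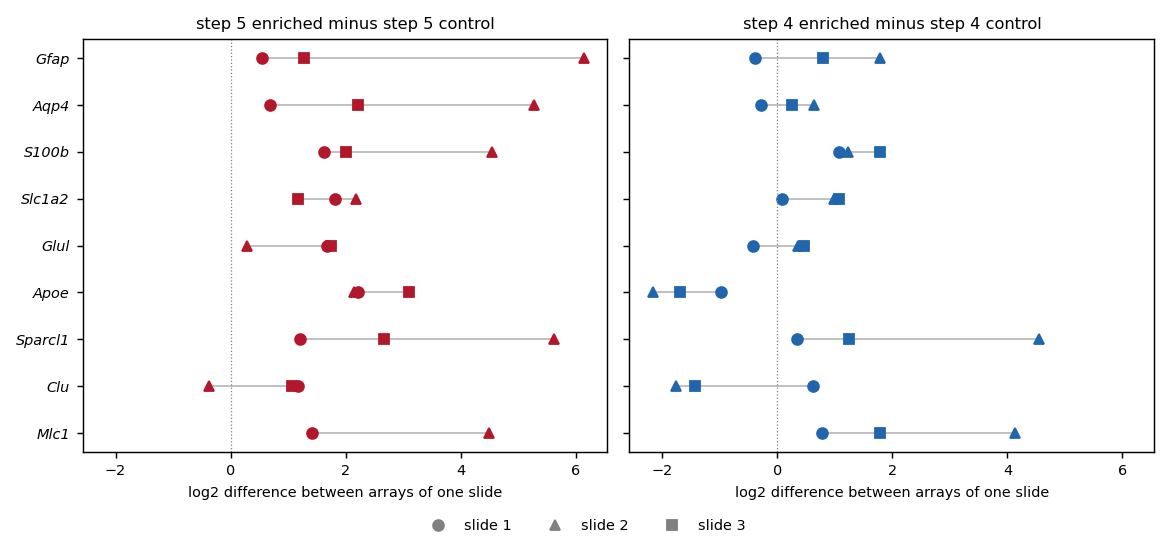
Log2 difference between the enriched and the control array of the same slide, for each gene at step 5 and at step 4. At step 5 slide 2 gives the largest difference for Gfap (6.14), Aqp4 (5.28), S100b (4.54) and Sparcl1 (5.62) and the smallest for Glul (0.29) and Clu (-0.37).

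The counts of members depended on which arrays entered. Without step 5 control replicate 2, 4 of 9 members passed at step 5, S100b, Slc1a2, Glul and Apoe, and 33.9% of all genes did. The same count passed without both slide 2 control arrays, when 35.2% of all genes did, and without all of slide 2, when 25.8% did, alternatives chosen after seeing the data. Without step 5 enriched replicate 3, 3 of 9 passed at step 5 enrichment, Apoe, S100b and Slc1a2, and 30.7% of all genes. Between step 5 and step 4 enriched cells, leaving out 1 array gave 2 to 7 members and 1.99 to 7.93% of all genes. The 2 of 9 were Apoe and Aqp4, without step 5 enriched replicate 3, when 2.73% of all genes passed, and these members passed under each of the 12 omissions. Without both slide 2 control arrays 9 of 9 members and 8.42% of all genes passed there. Neither array belongs to that comparison, so its differences did not move, 2.49 for Sparcl1 and 1.76 for Mlc1 among them. These arrays enter it only through the spread that the model shares over the groups. With arrays scaled to a common spread, 1 member passed in each of these comparisons, Apoe, when 14.7% of all genes passed at step 5 and 0.771% between the enriched groups. On the log ratio of the scanner software 3 members passed at step 5, Aqp4, Glul and Apoe, beside 39.1% of all genes, and 4 between the enriched groups, beside 5.15%.

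Against mESC, ratios could be tested for the 5 members whose mESC signal was well above background on all 12 arrays. All 5 were higher than mESC in step 5 enriched cells, at a background of 74.3% of 18141 genes (34.3% higher and 40% lower): Gfap by 6.33 (adjusted p = 1.7e-05, 80.5-fold), Glul by 2.72, Apoe by 2.03 (adjusted p = 4.86e-05), Sparcl1 by 9.21 (adjusted p = 1.8e-06, 594-fold) and Clu by 4.30. In step 5 control cells 4 of 5 were higher at a background of 48.7% (25.2% higher and 23.4% lower), and Apoe stood at -0.46 (adjusted p = 0.186). In step 4 enriched cells Glul, Sparcl1 and Clu were higher and Apoe lower, by -2.81 (adjusted p = 5.19e-06, 6.99-fold), at 70.5% (32.5% higher and 38% lower). In step 4 control cells the same 3 were higher and Apoe lower, by -1.20 (adjusted p = 0.00509), at 43.5% (21.8% higher and 21.7% lower). Gfap was at 0.67 and -0.06 in step 4 enriched and control cells (adjusted p = 0.436 and 0.959). Apoe was thus the member that passed above mESC in one group and below it in others. A ratio to mESC holds the dye bias of its probe, since dyes were not swapped, and leaves out the spread between mESC cultures.

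The order of group means also differed among the members. Gfap, Aqp4, S100b and Glul ran step 5 enriched, step 5 control, step 4 enriched and step 4 control. Slc1a2, Sparcl1 and Mlc1 had step 4 enriched cells above step 5 control cells, with overlap between these groups. Apoe and Clu had step 4 enriched cells lowest. By the root mean square of the log2 ratios centred on each gene's own mean over the arrays, the closest members were Glul and Slc1a2 (0.546), Mlc1 and Sparcl1 (0.595), Aqp4 and Gfap (0.718) and Aqp4 and S100b (0.734). Among other tested genes with a symbol, the closest were Gabrb1 to Slc1a2 (0.222), Hnmt to Glul (0.304), Hspb8 to Clu (0.431), Gpr17 to S100b (0.450), Prkca to Mlc1 (0.476, 10 arrays), Bcas1 to Aqp4 (0.556), Bcan to Sparcl1 (0.564), Gal3st1 to Apoe (0.624) and Cldn11 to Gfap (0.770), over 12 arrays where not said. To the mean centred profile of the members the closest were Meig1 (0.290), Ugt1a6b (0.313), Sox10 (0.405), Plxnb3 (0.416), Ntrk2 (0.436), Matn2 (0.437), Atp1b2 (0.452), Omg (0.462), Efhd1 (0.473) and Gpr17 (0.481). Of these, Cldn11 and Sox10 stand in the list of oligodendrocyte lineage markers used below, and Bcan and Atp1b2 in that of other astrocyte genes. The remaining genes named here stand in neither list, so this is no tally of cell types. All such distances share the arrays and the mESC channel and are a description.

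**Figure D4:**
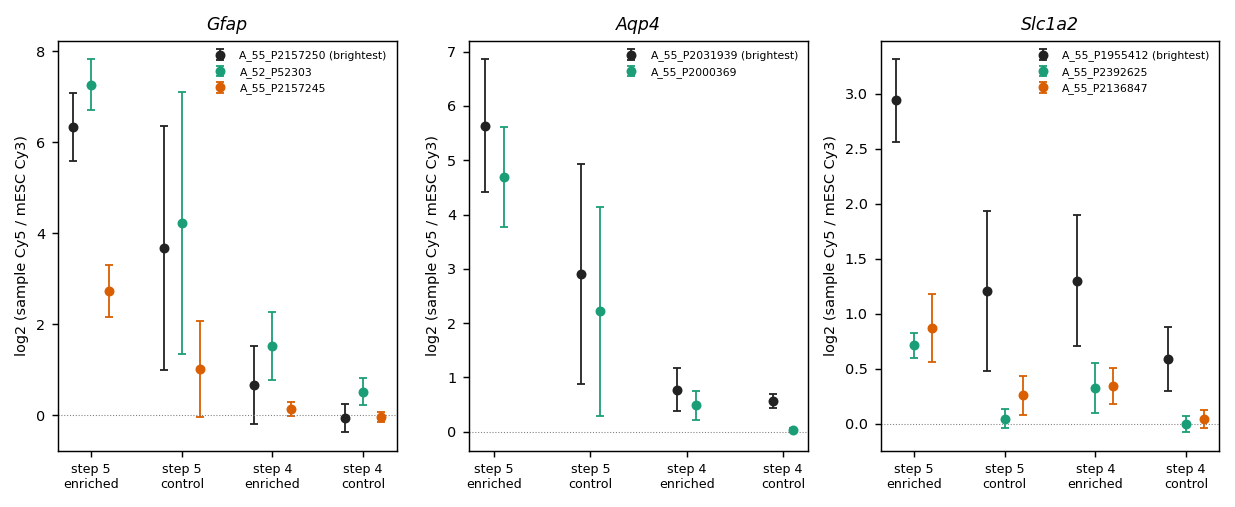
Mean log2 ratio to mESC, with SD over the arrays of each group as bars (n = 3), for the probes of the 3 genes with more than 1. The probes of Gfap and Aqp4 follow the same order of groups at different sizes, and the brightest Slc1a2 probe is the one with a large step 5 enriched mean (2.94).

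Other astrocyte genes were described from a list of 38, all tested. In step 5 enriched against step 5 control cells 28 were higher and 0 lower (median log2 difference 1.39, range -0.45 to 4.06). Gjb6, an astrocyte connexin, was higher by 3.03 (adjusted p = 0.000566), Dbi, an acyl-CoA binding protein, by 2.82 (adjusted p = 0.00227) and Slc7a10, an amino acid transporter, by 0.70 (adjusted p = 0.00147). At step 4, 6 were higher and 0 lower, with Aldoc, a glycolytic enzyme of astrocytes, higher by 3.07 (adjusted p = 0.0219) and Pla2g7, a phospholipase, by 1.62 (adjusted p = 0.015). Between step 5 and step 4 enriched cells 13 were higher and 0 lower, with Kcnj10, the potassium channel Kir4.1, higher by 4.14 (adjusted p = 0.012), Gjb6 by 3.08 (adjusted p = 0.00467) and Cst3, cystatin C, by 2.68 (adjusted p = 0.00508). The median for all genes was -0.01 at step 5, 0.01 at step 4 and -0.00 between the enriched groups. Of all genes 20.3%, 15% and 3.93% were higher in these comparisons, and 20.1%, 16.1% and 2.49% lower. The step 4 count of 6 of 38 was thus near the share of all genes. Counts of the lists below are to be read beside the same shares.

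The partners of the membrane genes were read from 10 genes of the perivascular membrane complex. In step 5 enriched cells 5 were higher and 1 lower than in step 5 control cells, among them Dtna, dystrobrevin alpha, by 1.14 (adjusted p = 0.000138) and Gja1, connexin 43, by 1.39 (adjusted p = 0.0109), while Trpv4, a calcium channel, was at -1.39 (adjusted p = 0.0012). Against step 4 enriched cells 4 were higher and 0 lower, among them Hepacam, the partner of Mlc1, by 1.40 (adjusted p = 0.0122). At step 4 enrichment 1 was higher and 1 lower. Among 8 tested aquaporins other than Aqp4, 0 were higher and 3 lower at step 5 enrichment, led by Aqp3, the glycerol channel of epithelia, at -5.05 (adjusted p = 0.000119) and followed by Aqp1 at -1.67 (adjusted p = 0.0338) and Aqp2 at -0.26 (adjusted p = 0.0328). Between the enriched groups only Aqp11 of these 8 was higher, by 0.85 (adjusted p = 0.0418).

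For glutamate and glutamine handling, 15 genes besides Slc1a2 and Glul were tested. At step 5 enrichment 6 were higher and 2 lower (median 0.05). Slc1a1, the neuronal glutamate transporter EAAC1, was higher by 2.45 (adjusted p = 0.000286), Slc38a3, a glutamine transporter of astrocytes, by 1.96 (adjusted p = 0.00265) and Slc1a6, a Purkinje cell transporter, by 1.19 (adjusted p = 0.0235). Asns, asparagine synthetase, was lower, at -1.53 (adjusted p = 0.0125). At step 4 enrichment 0 of the 15 passed. Between step 5 and step 4 enriched cells 4 were higher and 0 lower, with Slc38a3 higher by 2.41 (adjusted p = 0.00711), Slc1a1 by 2.31 (adjusted p = 0.00349) and Glud1, glutamate dehydrogenase, by 1.15 (adjusted p = 0.00883).

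Of 17 genes of lipoprotein synthesis, export and receptors, 8 were higher and 2 lower at step 5 enrichment (median 0.45). Abca1, the exporter that loads lipid onto Apoe, was higher by 2.07 (adjusted p = 0.000592), Nr1h3, a liver X receptor that drives Abca1 and Apoe, by 1.33 (adjusted p = 0.000496) and Srebf1 by 1.14 (adjusted p = 0.000859). Apoc1, an apolipoprotein whose gene lies beside Apoe, was lower, by -2.02 (adjusted p = 0.00022). Mean levels of Apoc1 were -2.87 and -0.86 in step 5 enriched and control cells and -3.36 and -0.91 in step 4 enriched and control cells, so unlike Apoe it was lower in enriched cells at both steps, by -2.45 at step 4 (adjusted p = 0.000166). At step 4 enrichment 5 of the 17 were higher and 1 lower, with Abca1 higher by 2.60 (adjusted p = 0.000354) and Vldlr by 1.51 (adjusted p = 0.016), in the same cells where Apoe was lower. Between the enriched groups 2 were higher and 2 lower. Nr1h3 was higher by 1.66 (adjusted p = 0.00186) and Lcat, which esterifies cholesterol, by 1.86 (adjusted p = 0.00419), while Srebf1 was at -0.71 (adjusted p = 0.0418).

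Among 17 genes of the SPARC family and secreted synapse regulators, 5 were higher and 1 lower at step 5 enrichment (median 0.28). Spock2, a SPARC relative, was higher by 1.32 (adjusted p = 0.0014), Nlgn1, a postsynaptic adhesion protein, by 2.08 (adjusted p = 0.00461) and Thbs3, a thrombospondin, by 0.97 (adjusted p = 0.00714), while Thbs4 was at -1.27 (adjusted p = 0.0212). At step 4, 4 were higher and 0 lower, and between the enriched groups 1 was higher, Spock2, by 1.14 (adjusted p = 0.0168). Of 14 intermediate filament genes other than Gfap, 2 were higher and 4 lower at step 5 enrichment. Vim, the vimentin of radial glia and astrocytes, was higher by 1.31 (adjusted p = 0.0104) and Nefm, a neurofilament, by 1.64 (adjusted p = 0.0282), against Prph at -1.33 (adjusted p = 0.00187), Lmnb1 at -1.12 (adjusted p = 0.00661) and Des, desmin, at -1.68 (adjusted p = 0.0114). Between the enriched groups 0 of these 14 passed, where 6.42% of all genes did, and Nes, nestin, at -1.47 (adjusted p = 0.0506) and Lmnb1 at -0.97 (adjusted p = 0.0528), named after their values were seen, were just short of the threshold. In the S100 list of 9 genes, 1 was higher at step 5 enrichment, S100a16 by 1.25 (adjusted p = 0.00775), and 1 lower, S100pbp at -1.45 (adjusted p = 0.000218). S100pbp encodes a binding protein of an S100 protein and is not itself an S100 gene.

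The gliogenic factors and cytokine pathway genes, 26 in all, had 14 higher and 0 lower at step 5 enrichment (median 0.78). Rorb, a nuclear receptor of developing astrocytes, was higher by 2.02 (adjusted p = 0.00156), Jak1 by 0.75 (adjusted p = 0.00178) and Jak2 by 0.73 (adjusted p = 0.00775). At step 4 enrichment 8 were higher and 2 lower. Jak2 was higher by 1.07 (adjusted p = 0.00185), Rorb by 1.71 (adjusted p = 0.00562) and Smad1 by 0.6 (adjusted p = 0.00692). The lower ones were receptor chains of the gliogenic cytokines, Lifr at -1.01 (adjusted p = 0.0139) and Il6st, gp130, at -0.57 (adjusted p = 0.0436). Between step 5 and step 4 enriched cells 5 were higher and 0 lower. Il6st was higher by 1.41 (adjusted p = 0.00365), Osmr, the oncostatin M receptor, by 2.83 (adjusted p = 0.0111) and Bmp4 by 1.31 (adjusted p = 0.0188). No gene of any list passed in step 5 control against step 4 control cells or in the difference of the enrichment effects.

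**Figure D5:**
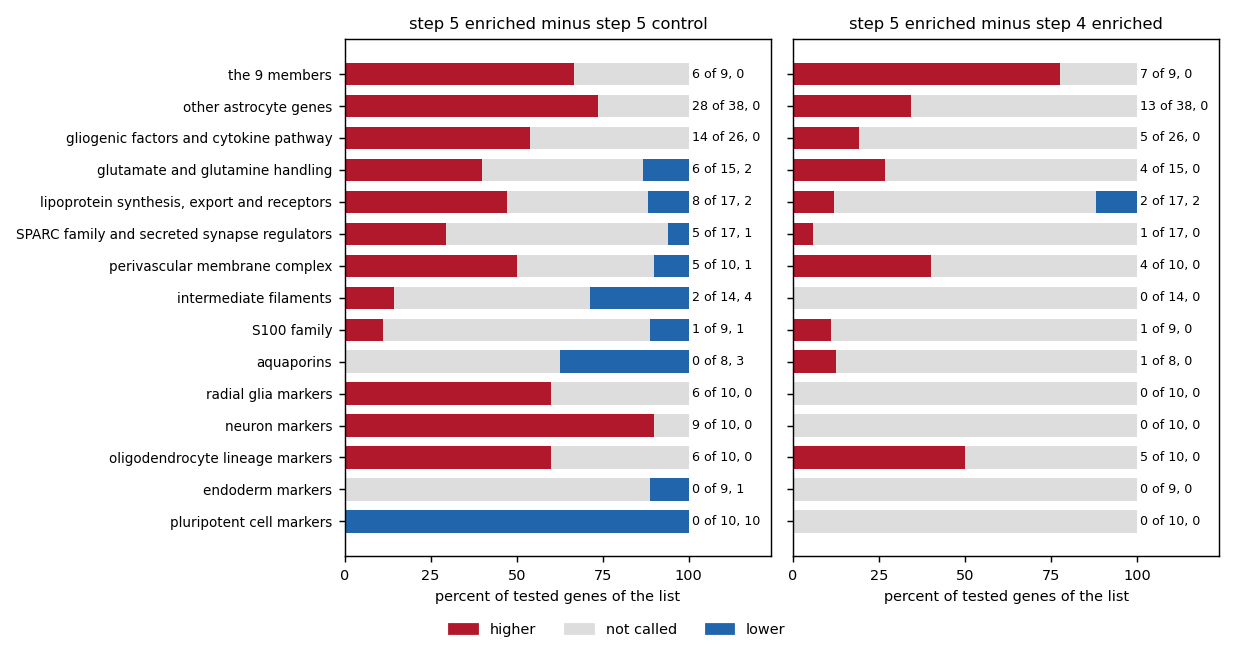
Share of the tested genes of each list that were higher, lower or not called at an adjusted p under 0.05, for step 5 enriched against step 5 control cells and for step 5 enriched against step 4 enriched cells, with counts as higher of tested, then lower. Other astrocyte genes have 28 of 38 higher and 13 of 38 higher in these comparisons, oligodendrocyte lineage markers 6 of 10 and 5 of 10, and neuron markers 9 of 10 and 0 of 10.

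Markers of other cells moved with the members, and their part in the results was not tested. Oligodendrocyte lineage markers had 6 of 10 higher at step 5 enrichment (Cnp by 3.42, Sox10 by 1.97), 0 of 10 at step 4 enrichment and 5 of 10 higher between step 5 and step 4 enriched cells (Cnp by 4.09, Sox10 by 2.51). Their median level was 2.36, 2.21 and 2.76 in step 5 enriched cells, 1.04, 0.12 and 1.74 in step 5 control cells, -0.08, 0.48 and 0.61 in step 4 enriched cells, and -0.29, -0.03 and 0.17 in step 4 control cells, with 9 or 10 of 10 well above background on each array. Like Gfap, Aqp4 and S100b they were high in step 5 enriched cells and low on slide 2 of the step 5 control cells. Neuron markers had 9 of 10 and radial glia markers 6 of 10 higher at step 5 enrichment, and 0 of 10 each between the enriched groups. All 10 pluripotency markers were lower in enriched than control cells at both steps (medians -3.23 at step 5 and -3.48 at step 4).

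Visceral endoderm, which forms in embryoid bodies, makes Apoe, Clu and Apoc1, and the endoderm markers were highest on slide 2 in each group. Their median level was -0.04, 1.71 and 0.05 in step 5 enriched cells, 0.36, 2.79 and 1.00 in step 5 control cells, 0.04, 1.29 and 0.01 in step 4 enriched cells, and 0.31, 2.63 and 0.76 in step 4 control cells, with 6 to 9 of 10 above background. The slide 2 control arrays that were highest for these markers were also highest of their group for Clu (4.61 at step 5 and 4.07 at step 4). In enriched cells Clu was highest on slide 3 at step 5 (4.62) and on slide 2 at step 4 (2.3). Apoe was highest on slide 2 in step 4 control cells (-0.81). It was highest on slide 3 in step 5 control (-0.16) and step 5 enriched cells (2.94), and on slide 1 in step 4 enriched cells (-2.24). At step 5 enrichment 1 of 9 tested endoderm markers passed, Afp at -3.33 (adjusted p = 0.0483), and at step 4 enrichment 0 did. Of the microglia markers, 3 of 10 were tested and 0 passed, with medians between -0.20 and 0.11 on all arrays. Endothelial markers had 0 of 9 higher and 3 lower at step 5 enrichment, fibroblast markers 0 of 10 higher and 1 lower, choroid plexus and ependymal markers 1 of 9 higher and 1 lower, and Schwann and neural crest markers 4 of 9 higher and 2 lower. Between the enriched groups, in the same order, 0 of 9, 1 of 10, 2 of 9 and 2 of 9 were higher. Lower there were 0, 0, 1 and 0. Of all genes 3.93% were higher there and 2.49% lower. Fibroblast markers had median levels of 5.1, 5.6 and 5.2 in step 5 enriched and 5.7, 3.5 and 6.1 in step 5 control cells. Their medians were 3.8, 4.0 and 4.2 in step 4 enriched and 3.3, 2.3 and 3.3 in step 4 control cells.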

How the data were processed

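RNA of 12 samples, 100 ng each per the labels, was measured on 2-colour Agilent mouse arrays, whose annotation places probes on mm9. The deposited scanner files hold Cy5 and Cy3 mean signals and local backgrounds as intensity and a log10 ratio, per the file headers, read with Agilent Feature Extraction 10.7.3.1, and slide 2 with 10.5.1.1, per the submitters' processing notes and the headers. The authors' deposited value table is in log2, with its making not given in the sources used here, and its values equalled the scanner ratio turned to log2 within 0.001 for 99.31 to 99.46% of probes, with array medians of 0 and 175 missing values, so scale and direction are those of Cy5 over Cy3.

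From the intensities, normexp (offset 50), loess within arrays and limma 3.58.1 in R 4.3.3 (packages statmod, version 1.5.0, and data.table, version 1.17.8) gave log2 ratios. Of 44397 spots, 1377 controls and 128 to 298 marked spots per array were left out, and 39429 probes remained. Probes were named by RefSeq accession (26581 probes), other accession (105), symbol (2531) or synonym (474), and 9738 probes stayed unnamed. Genes needed Cy5 well above background on all 3 arrays of a group (22318 tested, 16911 with a symbol), and for ratios to mESC the requirement was Cy3 well above background on all 12 arrays (18141). All arrays entered 1 model on the 4 group means, with eBayes and Benjamini-Hochberg. Replicates are separate biological replicates per the labels.

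Deviations of arrays with the same number correlated at 0.188 to 0.361 between step 5 enriched and control cells, 0.13 to 0.644 at step 4, 0.341 to 0.413 between enriched and 0.463 to 0.747 between control groups, so in each comparison every correlation was over 0.1. Step 4 enriched replicate 1 did not correlate best with the step 4 control array of its own number. The numbers were taken to pair the samples in the alternative with a replicate block, and the main model did not use them. Step 5 enriched against step 4 control arrays gave 0.25 to 0.334, and step 5 control against step 4 enriched arrays, which no test compares, -0.134 to 0.228. Whether the slide or a shared culture carries the pairing was not tested. On simulated data for step 5 enrichment (22228 genes, 50 changed genes per size), 58%, 86%, 98% and 98% were called at log2 changes of 1, 2, 3 and 4. Of 181 calls 11 were false. The simulated noise was independent between arrays and of equal spread in all groups, and only 200 genes changed. The real arrays differ in each of these, so the rates do not carry over to the members. In all, 29 alternatives were tried, 12 of which left out 1 array each. The genes named are the members, the sort antigen genes and, per list and direction, up to 3 with the smallest adjusted p, a few of which are not reported here. Members and the 20 other lists (245 genes) were chosen with earlier results of these data known.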

Additional observations from a re-analysis of the deposited data

Results flagged for a closer look

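The enrichment effect on Apoe differed between the steps by 4.10 in log2, step 5 minus step 4. Each slide showed it (3.19, 4.31 and 4.79): every step 5 enriched array lay above its step 5 control array, and every step 4 enriched array below its step 4 control array. This opposite order on every slide was the rule by which Apoe was flagged, so it is no separate support. The unadjusted p was 1.64e-05 (limma), rank 6 of 22318 genes. The adjusted p was 0.0542, the smallest of all genes but shared with Ppp1r1b, which had the smallest unadjusted p. Apoe passed under averaging over probes, array weights, robust eBayes and Cy5 alone, and its adjusted p was 0.649 with arrays scaled to a common spread. Averaging over probes left its difference at 4.10, since Apoe has no other probe, and moved its adjusted p only through other genes.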

How the results depend on the processing

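The 9 members kept their direction in most of the 29 alternatives: of the results for single members, 1720 kept direction and side of the threshold, 30 passed anew, 72 no longer passed and 24 changed sign, all 24 in differences or ratios that did not pass under that alternative. The replicate block changed no member's call, so pairing left 6 members called at step 5 enrichment, 1 at step 4 enrichment, 7 between enriched groups and 0 in the others between groups, with Apoe at an adjusted p of 0.00159 for step 5 enrichment. Leaving out 1 array gave 3 to 7 members at step 5 enrichment, 1 to 2 at step 4 enrichment, 2 to 7 between enriched and 0 to 3 between control groups, and 0 for the difference of effects. Against mESC it left 5 in step 5 enriched cells and 4 in each other group.

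The cause of the other changes was not tested. With arrays scaled to a common spread, members called were 1 at step 5 enrichment, 0 at step 4 and 1 between enriched groups, and all genes called were 14.7% (1180 higher, 2107 lower, against 4525 and 4496), 9.97% (619 and 1605, against 3350 and 3603) and 0.771%. On the scanner log ratio and on the deposited table, members called were 3, 2 and 4. At step 4 enrichment 2 passed with no background correction, with array weights and with the compared groups alone. Between control groups 3 passed with array weights, and 2 without both slide 2 control arrays or without all of slide 2. For the difference of effects 1 passed with the mean over probes, array weights, robust eBayes or Cy5 alone, which was Apoe. With no filter on dim probes, more members could be tested against mESC, and 7 passed in step 4 enriched, 8 in step 5 control and 9 in step 5 enriched cells. Over all genes, step 4 enrichment called 20.7% with no filter and 13.5% without slide 2, and step 5 enrichment 25.8% without slide 2. Between enriched groups, where 6.42% were called, it was 4.14% with no filter, 10.9% with the block, 16.6% with array weights, 4.21% with the compared groups alone, 1.39% without slide 2 and 1.99 to 7.93% without 1 array. Between control groups, where 0% were called, it was 0.00896% on the scanner ratio or deposited table, 0.0448% with scaled arrays, 0.00448% with the block, 5.73% with array weights, 0.829% without the slide 2 control arrays, 0.363% without slide 2 and up to 1.82% without 1 array. For the difference of effects it was at most 0.291%, with array weights. Against mESC, step 4 control cells gave 27.3% and step 5 control cells 31.8% with no filter, and the last 30.8% with the compared groups alone.

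Signs turned as follows. Scaled arrays gave Sparcl1 -0.33 and Clu -1.20 at step 5 enrichment, Sparcl1 -0.43, Aqp4 -0.093 and Glul -0.41 at step 4, and S100b -0.049, Mlc1 -0.038 and Gfap -0.24 for the difference of effects. The scanner ratio and the deposited table gave S100b -2.60 and Slc1a2 -0.062 there. Median centring, which moved the median of all genes by 0.13 at either enrichment and by up to 0.44 against mESC, put Apoe of step 5 control cells 0.13 above mESC. Gfap of step 4 control cells was 0.034 above mESC with array weights and 0.12 without both slide 2 control arrays or slide 2, and it ran between -0.153 and 0.123 without 1 array. Without 1 array, Glul at step 4 enrichment ran between -0.058 and 0.461 (below 0 without step 4 enriched replicate 2 or 3), Mlc1 between control groups between -0.644 and 2.731 (below 0 without step 5 control replicate 1), and the difference of effects between -0.101 and 2.163 for Sparcl1 and between -0.969 and 2.406 for Mlc1 (below 0 without step 5 control replicate 2). Aqp4 at step 4 enrichment was -0.009 without slide 2, and the difference of effects for Mlc1 was -0.05 without both slide 2 control arrays. Signals near background limit S100b, Slc1a2 and, in mESC, Aqp4 and Mlc1.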
